A study of Mus musculus with 12 samples.

Results

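The genes described here are the solute carriers that move amino acids and the transmitters made from them across membranes. They were taken as all rows of the mouse RNA-seq count table whose symbol belongs to the Slc1a, Slc3a, Slc6a, Slc7a, Slc36a, Slc38a or Slc43a series, leaving out Slc1a2, Slc1a3 and Slc6a8. The pattern matched 55 rows, and with the 3 exceptions removed 52 members of the 17365 genes in the table remained. Of these, 49 are transporter genes and 3 carry a symbol ending in os, namely Slc7a6os, a neighbouring gene that encodes no transporter, Slc6a19os and Slc36a1os. All 52 identifiers carried the same symbol in GENCODE vM21 (GRCm38). The rule reads symbols alone and uses no measured value.

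Neural stem cells (NSCs) were derived from the subventricular zone of adult mice of 6 to 8 weeks and grown as adherent cultures. They were held for 3 days in EGF and FGF2 (EGF/FGF, proliferating), in BMP4 alone (BMP, dormant quiescent NSCs, d-qNSCs) or in BMP4 with FGF2 (BMP/FGF, primed quiescent NSCs, p-qNSCs), each factor at 10 ng/ml. Each of the 3 conditions had 4 libraries, 2 from the ANS4 line (MF1 strain) and 2 from the BL6 line (C57BL/6 strain), none with a genetic change named in the labels. The 2 libraries of a line and condition were numbered replicates, and whether they came from separate cultures is not given, so p-values measure only the spread between these libraries, which may be technical.

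Amino acid carriers fall into families with distinct roles. The SLC1 family takes up glutamate or exchanges small neutral amino acids, and the SLC7 family holds cationic amino acid carriers together with light chains that reach the surface only when bound to a heavy chain of the SLC3 family. SLC6 carriers use sodium and chloride to recover GABA, glycine, taurine and monoamines, SLC38 carriers move glutamine and other neutral amino acids, SLC36 carriers are proton-coupled, and SLC43 carriers let large neutral amino acids pass by facilitated diffusion. In the brain, astrocytes and their NSC relatives are known for the uptake of glutamate and GABA and for the release of glutamine.

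Library totals lay between 18069052 and 19451818 estimated counts, so that 3 counts equalled 0.155 to 0.168 CPM (counts per 1000000, here scaled by TMM factors of 0.972 to 1.03). Summed levels of 7 NSC and radial glia markers were 4609 to 5098 CPM in EGF/FGF and 4612 to 5735 CPM in BMP. In BMP/FGF they were 6464 to 6830 CPM. The 7 astrocyte markers summed to 1636 to 2016 CPM in EGF/FGF, 4825 to 6329 CPM in BMP and 8100 to 8290 CPM in BMP/FGF. Summed levels of 6 neuron markers were 556 to 589, 1127 to 1745 and 869 to 934 CPM in the same order, those of 6 oligodendrocyte lineage markers 605 to 665, 424 to 610 and 565 to 592 CPM, and those of 4 cycling genes 1704 to 2122, 242 to 418 and 170 to 180 CPM. The 4 ependymal and choroid plexus markers summed to 51.9 to 69.4, 174 to 209 and 177 to 186 CPM. Microglia (6 of 12 markers in the table, Csf1r at 3 counts or fewer in every library), endothelium (4 of 5 in the table) and pericytes (4 of 5 in the table, Lum at 3 counts or fewer) summed to at most 18.9, 47.2 and 6.42 CPM. Endothelial markers stood at 39.1 to 47.2, 5.58 to 9.30 and 15 to 19 CPM in the same order and microglial ones at 13.0 to 18.9, 5.81 to 7.56 and 9.38 to 12 CPM. Astrocyte, neuron, cycling, endothelial and microglial sums thus did not overlap between any of the 3 conditions. NSC and radial glia sums were higher in every BMP/FGF library than in all libraries of the other conditions. Ependymal sums were higher in both BMP conditions than in EGF/FGF, and the part of all these sums in any single result was not tested. In bulk RNA, fewer cells of a type and less RNA per cell cannot be told apart.

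A sequence found near some of these genes is shown first, because several amino acid carriers are known targets of the transcription factor ATF4, which acts when amino acids run short. ATF4 binds a composite element whose core is TGATGNAA. Promoter windows of 300 bases, from 250 before to 50 after a start site in RefSeq (GRCm38.p6), were given for 37 of the 52 members. The core lay on either strand in the windows of 3 of them, or 8.11%, against 4.51% of all 27025 genes with a window (1219 genes). The stretches holding the core are printed here on the strand of the gene, with the core in capitals.
Slc7a11, chr3:50443642-50443690, minus strand: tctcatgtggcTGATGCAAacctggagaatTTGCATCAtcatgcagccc
Slc1a4, chr11:20332699-20332728, minus strand: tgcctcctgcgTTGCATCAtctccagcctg
Slc7a7, chr14:54418067-54418096, minus strand: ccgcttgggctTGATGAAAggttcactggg
Slc7a7, chr14:54417927-54417956, minus strand: gacctagaagcTGATGCAAcagcttccccg
The Slc7a11 window held 2 copies in opposite orientation, starting 66 and 47 bases upstream of the start site. In Slc1a4 the core ran across the start site, in the reverse orientation. In Slc7a7 the cores began 141 bases and 1 base upstream of a start site, and the second of these also lay 243 bases upstream of another start site of the same gene. A match is a description of letters and says nothing of binding. The levels of these 3 genes are given with their families below.

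Of the 52 members, 35 passed the filter on low counts and were tested, and 17 did not. Those below the filter never exceeded 13 counts in any library. They were Slc1a6 and Slc1a7, glutamate carriers known from Purkinje cells and retina, Slc6a2, Slc6a3 and Slc6a4, the noradrenaline, dopamine and serotonin carriers, the GABA carrier Slc6a13, and Slc6a14, Slc6a15, Slc6a18, Slc6a20a, Slc6a20b, Slc7a13, Slc36a2, Slc38a5, Slc38a8, Slc6a19os and Slc36a1os. Slc6a20a and Slc6a20b are near-identical copies between which reads can be split, and they summed to 3 and 6 counts over all 12 libraries. Slc6a13 and the glutamine carrier Slc38a5 each summed to 3 counts over 12 libraries. Slc36a2 had the highest single count among them, 13 in 1 BMP library, and Slc36a1os the highest sum, 77 counts. None of the monoamine carriers was therefore detectable above a few counts at this depth.

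The first comparison asks how transporter expression differed once proliferating NSCs had been moved into BMP. In BMP, 23 of the 35 tested members were higher and 9 were lower than in EGF/FGF at a false discovery rate (FDR, Benjamini-Hochberg over all 13312 tested genes) under 0.05 in edgeR's quasi-likelihood test, and 3 did not pass. As shares, 65.7% were higher and 25.7% lower, beside 40.8% higher and 38.8% lower among all tested genes. The members' median log2 fold change was 0.57, beside 0.02 over all tested genes. A log2 fold change of over 1.5 in either direction, the size limit of the study, was passed by 8 members, of which 6 were higher and 2 lower, and by 17.8% of all tested genes. When FGF2 was present beside BMP4, 20 members were higher and 8 lower than in EGF/FGF (57.1% and 22.9%), beside 40.9% and 38% of all tested genes, with a median of 0.41 beside 0.02. Again 8 members passed 1.5, and 16.7% of all tested genes did. Slc6a19, among the members past 1.5 in both comparisons, passed the filter on low counts only through libraries with BMP4, which favours a call as higher.

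Adding FGF2 to BMP4 was the second comparison, between p-qNSCs and d-qNSCs. In BMP/FGF 7 members were higher and 13 lower than in BMP, or 20% and 37.1%, beside 20.1% and 21.3% of all tested genes. The median of the members was -0.12, beside -0.00355 over all tested genes. The number of tested members past 1.5 was 0 in edgeR and in the DESeq2 Wald test, since the largest absolute value was 1.11 whatever its p, and 1.59% of all tested genes passed it. All 3 comparisons share libraries in pairs, so their results are not independent of each other. Of the 23 members that rose in BMP, 10 were lower in BMP/FGF than in BMP, 3 were higher still and 10 were not called between them. Of the 9 that fell in BMP, 3 were lower still with FGF2, 2 were higher and 4 were not called. The BMP libraries enter both comparisons with opposite sign, so members picked as high in BMP lean toward a fall in the second. The corresponding shares over all genes that rose or fell in BMP were not counted, so these splits have no background.

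**Figure D1:**
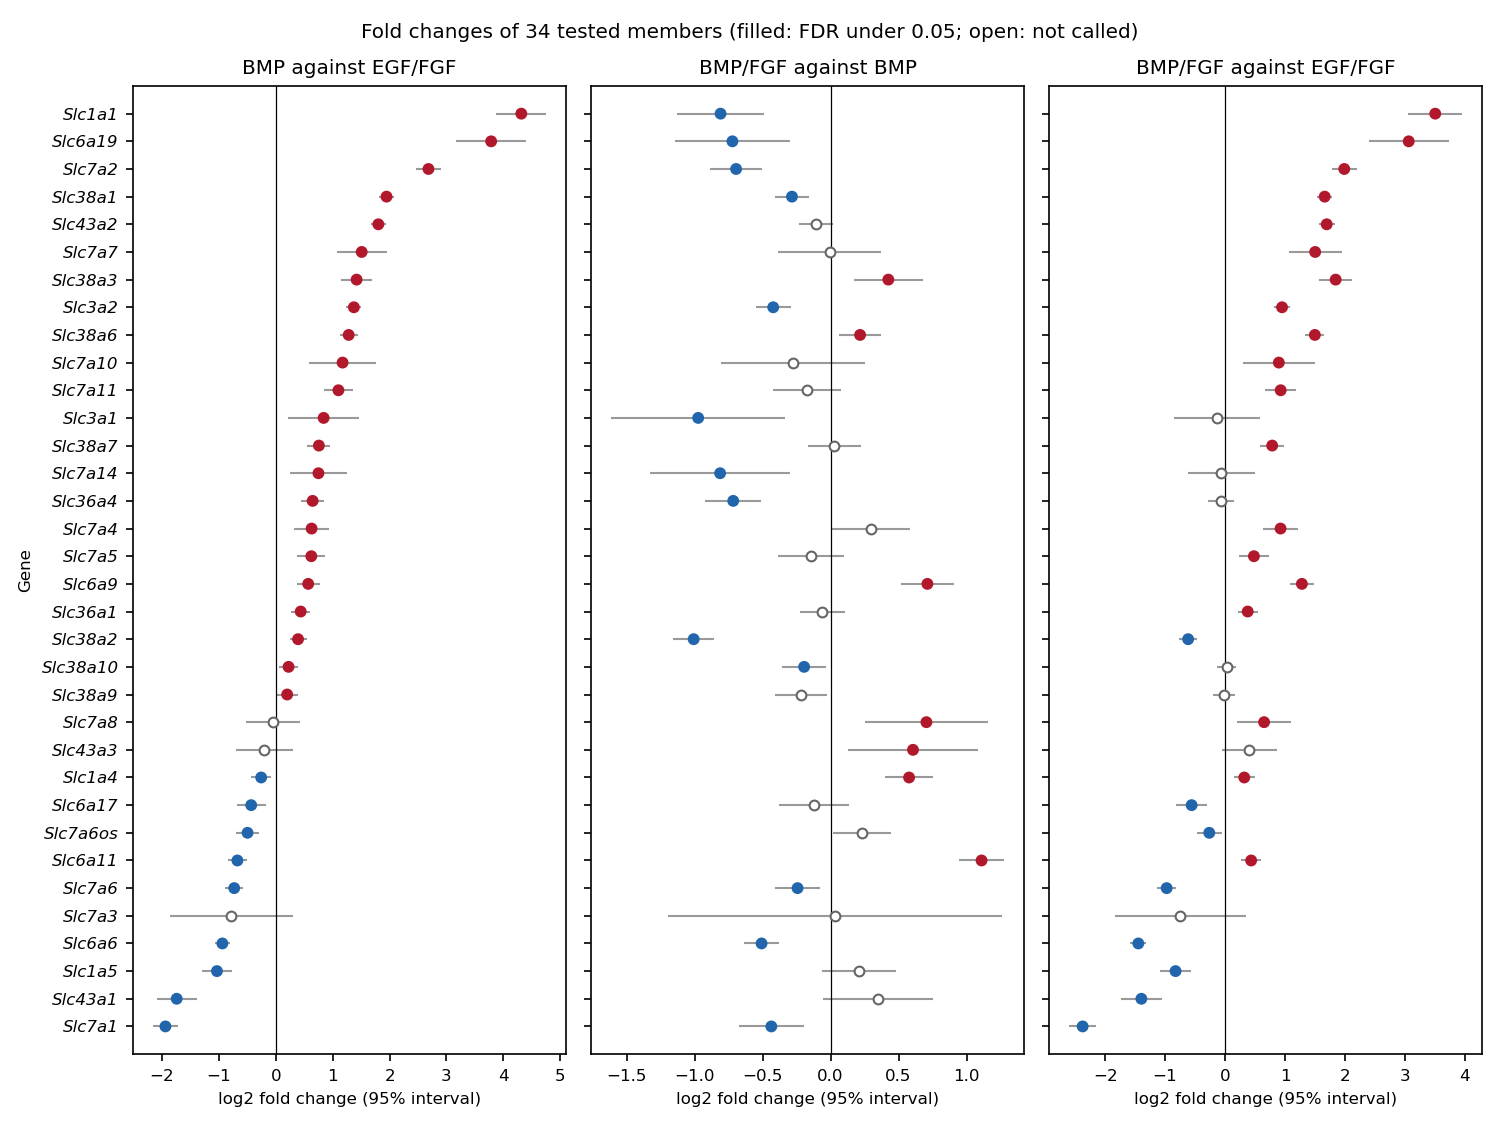
Log2 fold change (x axis) with its 95% interval of 34 of the 35 tested members (y axis, ordered by BMP against EGF/FGF) in the 3 comparisons, all 12 libraries fitted together. Red and blue points passed an FDR of 0.05 upward and downward and open points did not; in BMP against EGF/FGF 22 points are red and 9 blue, and each panel has its own x axis.

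Among the SLC1 carriers, Slc1a1 rose and Slc1a5 fell under BMP. Slc1a1 encodes EAAC1, a glutamate carrier that also takes up cysteine, and had the largest rise of all tested members. Its level was 2.07 and 2.48 CPM in ANS4 and 0.989 and 1.70 CPM in BL6 in EGF/FGF, 26.4 and 26.8 CPM in ANS4 and 51.8 and 44.2 CPM in BL6 in BMP, and 18.5 and 18.3 CPM in ANS4 and 24.6 and 22 CPM in BL6 in BMP/FGF. The 3 conditions did not overlap, and the BL6 libraries were the higher ones in BMP and BMP/FGF and the lower ones in EGF/FGF. From EGF/FGF to BMP it rose 19.9-fold (log2 fold change 4.32, SE 0.21, adjusted p = 1.89e-12), and it was lower in BMP/FGF than in BMP (log2 fold change -0.81, SE 0.15, adjusted p = 0.000441). Slc1a1 lies at chr19:28835049-28913960 (plus strand), and 2631 of its exon bases are shared with 4430402I18Rik on the opposite strand, which had 0.738, 4.11 and 4.26 CPM in EGF/FGF, BMP and BMP/FGF. Strandedness of the counting is not given, so reads of the pair cannot be told apart.

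Slc1a5 encodes ASCT2, an exchanger of glutamine and other neutral amino acids found in growing cells. Its level was 19.7 ± 1.10 CPM (mean ± SD over 4 libraries, as for all levels written so) in EGF/FGF. The BMP libraries were lower, at 9.71 ± 2.46 CPM (log2 fold change -1.03, SE 0.12, adjusted p = 4.98e-07). In BMP/FGF it stood at 11.1 ± 1.09 CPM, below EGF/FGF (log2 fold change -0.82, SE 0.12, adjusted p = 7.30e-06) and with libraries that overlapped those of BMP. Slc1a4, which encodes the serine and alanine exchanger ASCT1 and carries the ATF4 core across its start site, had a different course. Its level was 139 and 142 CPM in ANS4 and 115 and 115 CPM in BL6 in EGF/FGF, 120.2 and 125 CPM in ANS4 and 90.1 and 94.8 CPM in BL6 in BMP and 149 and 157 CPM in ANS4 and 163 and 166 CPM in BL6 in BMP/FGF. ANS4 exceeded BL6 in EGF/FGF and BMP, and every BMP/FGF library exceeded all libraries of the other conditions. It fell slightly under BMP (log2 fold change -0.26, SE 0.082, adjusted p = 0.00871) and rose with FGF2 (log2 fold change 0.58, SE 0.083, adjusted p = 2.95e-05). The rise of BMP/FGF over EGF/FGF (log2 fold change 0.32, SE 0.082, adjusted p = 0.00167) did not pass in the ANS4 libraries alone, where the log2 fold change was 0.12. Per kilobase of its longest transcript, Slc1a4 was the most abundant of these 3 genes in every condition, at 32.6, 27.4 and 40.4 CPM per kb, and Slc1a1 passed Slc1a5 in BMP (9.81 against 3.46 CPM per kb) after lying under it in EGF/FGF (0.477 against 7.01).

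Both heavy chains were called upward from EGF/FGF to BMP and downward when FGF2 was added, with Slc3a1 near the limit of detection. Slc3a2 encodes 4F2hc (CD98), the heavy chain that carries most light chains to the cell surface. It had 207 and 205 CPM in ANS4 and 208 and 193 CPM in BL6 in EGF/FGF, 539.9 and 544 CPM in ANS4 and 492 and 527 CPM in BL6 in BMP and 375 and 368 CPM in ANS4 and 417 and 410.3 CPM in BL6 in BMP/FGF. The conditions were separate in both lines, with BMP highest. The rise was 2.59-fold (log2 fold change 1.37, SE 0.063, adjusted p = 8.72e-13), and BMP/FGF lay below BMP (log2 fold change -0.42, SE 0.061, adjusted p = 3.53e-05) and above EGF/FGF (log2 fold change 0.95, SE 0.062, adjusted p = 1.35e-10). Slc3a1, the heavy chain rBAT of kidney and gut, had 0.413 to 0.828, 0.883 to 1.09 and 0.323 to 0.67 CPM in EGF/FGF, BMP and BMP/FGF, and shares 601 exon bases with Prepl on the opposite strand, a gene at 79.9 to 97.0 CPM. Its rise in BMP (log2 fold change 0.84, SE 0.30, adjusted p = 0.0149) was not called in ANS4 alone (adjusted p = 0.274). Its fall with FGF2 (log2 fold change -0.97, SE 0.30, adjusted p = 0.0165) was not called in either line alone, nor without the first ANS4 library (adjusted p = 0.0592) or the first BL6 library of BMP/FGF (adjusted p = 0.0582).

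Of the 6 light chains tested, 4 rose, 1 fell and 1 did not pass between EGF/FGF and BMP, with a median log2 fold change of 0.86. These shares of 66.7% higher and 16.7% lower stood beside 40.8% and 38.8% of all tested genes, whose median was 0.02. Slc7a11, which encodes the cystine and glutamate exchanger xCT and has both copies of the ATF4 core, stood at 140.0 and 126 CPM in ANS4 and 155 and 176 CPM in BL6 in EGF/FGF, 366 and 364 CPM in ANS4 and 291 and 253 CPM in BL6 in BMP and 251 and 260.4 CPM in ANS4 and 318 and 307 CPM in BL6 in BMP/FGF. In BMP the ANS4 libraries were the higher ones, and in both other conditions the BL6 libraries were. It rose in BMP (log2 fold change 1.10, SE 0.12, adjusted p = 1.60e-07) and in BMP/FGF (log2 fold change 0.93, SE 0.12, adjusted p = 1.40e-06) over EGF/FGF. Slc7a5 encodes LAT1, the exchanger of leucine and other large neutral amino acids. It had 85.5 and 88.5 CPM in ANS4 and 94.1 and 84.4 CPM in BL6 in EGF/FGF, 172 and 175 CPM in ANS4 and 95.7 and 113 CPM in BL6 in BMP and 128 and 130.0 CPM in ANS4 and 123 and 114 CPM in BL6 in BMP/FGF. The rise under BMP (log2 fold change 0.62, SE 0.12, adjusted p = 9.27e-05) was carried mainly by ANS4, with log2 fold changes of 1.00 in ANS4 and 0.21 in BL6, and in BL6 alone the adjusted p was 0.0509.

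Slc7a6 (y+LAT2) and Slc7a7 (y+LAT1) both exchange cationic for neutral amino acids, and they moved in opposite directions. Slc7a6 had a mean of 52.5 ± 1.62 CPM in EGF/FGF. It was lower in BMP, at 31.7 ± 3.88 CPM (log2 fold change -0.73, SE 0.077, adjusted p = 9.00e-08), and in BMP/FGF, at 26.7 ± 1.26 CPM (log2 fold change -0.97, SE 0.078, adjusted p = 2.29e-09). Slc7a7, the third gene with the core, was higher in BMP, at 2.74 ± 0.382 against 0.958 ± 0.254 CPM (log2 fold change 1.51, SE 0.21, adjusted p = 2.91e-06) and stood at 2.73 ± 0.232 CPM in BMP/FGF. It shares 232 exon bases with the far more abundant Oxa1l on the opposite strand (101 to 114 CPM). Slc7a6 remained the more abundant of the pair per kilobase, with 8.44 against 1.20 CPM per kb in BMP. Slc7a10, which encodes Asc-1 for small neutral amino acids and D-serine, rose from 0.556 ± 0.148 in EGF/FGF to 1.26 ± 0.262 CPM in BMP (log2 fold change 1.17, SE 0.28, adjusted p = 0.000851), and its neighbour Lrp3, with which it shares 377 exon bases, had 52.5, 76.6 and 58.0 CPM in the 3 conditions. Slc7a8 (LAT2) had 1.76 to 3.56 CPM in EGF/FGF and 1.81 to 2.87 CPM in BMP, ranges that overlap, and was higher in BMP/FGF, at 3.30 to 4.20 CPM, than in BMP (log2 fold change 0.71, SE 0.22, adjusted p = 0.0142), a difference not called without the first BL6 library of BMP (adjusted p = 0.0573). The comparison of BMP/FGF with EGF/FGF for Slc7a8 (log2 fold change 0.65, SE 0.21, adjusted p = 0.00979) did not pass in BL6 alone, where the log2 fold change was 0.17.

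Within the cationic carriers, the 2 main genes exchanged places. Slc7a1 encodes CAT1, the widely expressed carrier of arginine and lysine, and Slc7a2 encodes CAT2, its inducible relative. Slc7a1 was at 65 and 63.9 CPM in ANS4 and 70.1 and 66.7 CPM in BL6 in EGF/FGF, 13.7 and 13.5 CPM in ANS4 and 21.6 and 21.2 CPM in BL6 in BMP and 13.3 and 12.2 CPM in ANS4 and 11.7 and 14 CPM in BL6 in BMP/FGF. All EGF/FGF libraries were far above the others, and BL6 was the higher line in BMP. Its fall under BMP was the largest among tested members, at 3.83-fold (log2 fold change -1.94, SE 0.11, adjusted p = 9.48e-12), and it lay lower again with FGF2 (log2 fold change -0.44, SE 0.11, adjusted p = 0.00566), although in ANS4 alone the latter was not called, at a log2 fold change of -0.09.

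Slc7a2 had 23.5 and 23 CPM in ANS4 and 22.9 and 20.8 CPM in BL6 in EGF/FGF, 172 and 171 CPM in ANS4 and 127 and 114 CPM in BL6 in BMP and 88.1 and 85.1 CPM in ANS4 and 92.8 and 90.8 CPM in BL6 in BMP/FGF. No library of one condition overlapped another, and in BMP the ANS4 libraries were the higher ones. It rose 6.42-fold under BMP (log2 fold change 2.68, SE 0.10, adjusted p = 6.82e-14) and was lower with FGF2 than without (log2 fold change -0.69, SE 0.092, adjusted p = 1.36e-05). On the level per kilobase of longest transcript, Slc7a1 stood above Slc7a2 in EGF/FGF (9.25 against 2.85 CPM per kb) and below it in BMP (2.44 against 18.5) and BMP/FGF (1.78 against 11.3). The order was the same with the median transcript length, at 33.7 against 6.13 CPM per kb in EGF/FGF and 8.87 against 39.7 in BMP. Slc7a3 (CAT3) stayed under 1 CPM in every library, at 0.413 to 0.93, 0 to 0.678 and 0.224 to 0.539 CPM in the 3 conditions, and was called in none of the 3 comparisons. Slc7a14, a lysosomal relative, was near 1 CPM at 0.994 to 1.61 CPM in BMP and 0.569 to 1.03 CPM in EGF/FGF (log2 fold change 0.75, SE 0.24, adjusted p = 0.00811). It was lower with FGF2 (log2 fold change -0.81, SE 0.24, adjusted p = 0.0129), a fall not called without the second BL6 library of BMP/FGF (adjusted p = 0.0622), and neither difference was called in ANS4 alone. Slc7a4, which has no settled substrate, rose from 3.83 ± 0.791 to 5.98 ± 1.79 and 7.25 ± 0.582 CPM in BMP and BMP/FGF (log2 fold changes 0.63 and 0.93 against EGF/FGF). It shares 554 exon bases with P2rx6, which had 4.26, 14.4 and 17.0 CPM.

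All 7 SLC38 carriers tested were higher in BMP than in EGF/FGF, with a median log2 fold change of 0.76, beside 40.8% higher and a median of 0.02 among all tested genes. Slc38a1 encodes SNAT1, which takes up glutamine with sodium, and had the highest CPM of all members in BMP. Its level was 329.9 and 323 CPM in ANS4 and 322 and 314 CPM in BL6 in EGF/FGF, 1239.7 and 1241 CPM in ANS4 and 1264 and 1227 CPM in BL6 in BMP and 952 and 961 CPM in ANS4 and 1106 and 1069 CPM in BL6 in BMP/FGF. The spread between libraries was small beside the difference between conditions. It rose 3.85-fold under BMP (log2 fold change 1.95, SE 0.062, adjusted p = 8.12e-15) and was a little lower with FGF2 (log2 fold change -0.28, SE 0.06, adjusted p = 0.00105). Slc38a6 is a less studied member of the family and rose 2.43-fold, from 286 ± 18.8 to 698 ± 65.5 CPM (log2 fold change 1.28, SE 0.074, adjusted p = 2.47e-11), reaching 811 ± 74.1 CPM in BMP/FGF. Slc38a6 and Slc3a2 were the members with the highest level per kilobase of longest transcript in EGF/FGF, at 72.8 and 72.1 CPM per kb.

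Slc38a2 encodes SNAT2, which is induced by amino acid shortage and is coded next to Slc38a1 on chromosome 15 (chr15:96687392-96699730, beside chr15:96571418-96642913, both on the minus strand). Slc38a2 had 267 and 276 CPM in ANS4 and 247 and 258 CPM in BL6 in EGF/FGF, 333 and 345 CPM in ANS4 and 358 and 340.4 CPM in BL6 in BMP and 152 and 156 CPM in ANS4 and 191 and 188 CPM in BL6 in BMP/FGF. Every BMP/FGF library lay under every EGF/FGF library, and every BMP library lay above. The gene rose modestly under BMP (log2 fold change 0.39, SE 0.071, adjusted p = 6.55e-05) and was 2.01-fold lower with FGF2 than in BMP alone (log2 fold change -1.01, SE 0.072, adjusted p = 1.22e-08), the largest fall of a member in that comparison. Against EGF/FGF, BMP/FGF was lower (log2 fold change -0.61, SE 0.072, adjusted p = 3.74e-07), whereas Slc38a1 was higher there (log2 fold change 1.66, SE 0.061, adjusted p = 5.15e-14). Both neighbours were thus lower with FGF2 than in BMP alone, and they lay on opposite sides of EGF/FGF.

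Slc38a3 encodes SN1, the carrier through which astrocytes exchange glutamine. It had 19 and 21.9 CPM in ANS4 and 19.9 and 17.8 CPM in BL6 in EGF/FGF, 72.7 and 71.1 CPM in ANS4 and 35 and 39.5 CPM in BL6 in BMP and 79.9 and 75.5 CPM in ANS4 and 65.7 and 62.8 CPM in BL6 in BMP/FGF. It rose under BMP (log2 fold change 1.42, SE 0.13, adjusted p = 1.36e-08) and further with FGF2 (log2 fold change 0.43, SE 0.12, adjusted p = 0.00948), the latter with log2 fold changes of 0.11 in ANS4 and 0.79 in BL6 by line and no call in ANS4 alone or without the line term. Slc38a7, a lysosomal glutamine carrier, was higher in BMP, at 36.7 ± 4.27 against 21.7 ± 2.54 CPM (log2 fold change 0.76, SE 0.096, adjusted p = 1.03e-06) and stood at 37.4 ± 1.86 CPM in BMP/FGF. Slc38a10 rose from 98.7 ± 11.2 in EGF/FGF to 115 ± 7.37 CPM in BMP (log2 fold change 0.22, SE 0.076, adjusted p = 0.0122), a rise not called in ANS4 alone or without the second BL6 library of EGF/FGF. Slc38a9, which reports lysosomal arginine to mTORC1, was at 14.8 ± 1.84, 17 ± 0.769 and 14.6 ± 1.32 CPM. Its difference between BMP and EGF/FGF (log2 fold change 0.20, SE 0.089, adjusted p = 0.0467) lost its call under 17 of 21 alternative settings.

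Proton-coupled and SLC43 carriers split by gene. Slc36a1 (PAT1, found on lysosomes) was higher in BMP, at 24.3 ± 1.78 against 17.9 ± 1.20 CPM (log2 fold change 0.44, SE 0.08, adjusted p = 6.93e-05) and stood at 23.3 ± 1.10 CPM in BMP/FGF. Slc36a4 (PAT4) was highest in BMP, with 7.49 to 8.94, 12.7 to 13.6 and 6.90 to 9.27 CPM in EGF/FGF, BMP and BMP/FGF. It rose in BMP (log2 fold change 0.65, SE 0.096, adjusted p = 6.78e-06) and was lower with FGF2 (log2 fold change -0.72, SE 0.097, adjusted p = 1.79e-05). Slc43a2 encodes LAT4, through which large neutral amino acids leave cells, and Slc43a1 encodes its relative LAT3. Slc43a2 had 21.2 and 21 CPM in ANS4 and 23 and 23.7 CPM in BL6 in EGF/FGF, 78.7 and 79.6 CPM in ANS4 and 72.6 and 79.1 CPM in BL6 in BMP and 72.7 and 70.8 CPM in ANS4 and 72.6 and 71.7 CPM in BL6 in BMP/FGF. It rose 3.49-fold in BMP (log2 fold change 1.80, SE 0.063, adjusted p = 2.64e-14) and 3.24-fold in BMP/FGF. Slc43a1 fell from 4.34 ± 0.46 to 1.29 ± 0.264 CPM (log2 fold change -1.74, SE 0.17, adjusted p = 2.79e-08) and was at 1.65 ± 0.19 CPM in BMP/FGF (log2 fold change -1.39, SE 0.16, adjusted p = 3.66e-07). Slc43a3, which carries nucleobases rather than amino acids, had 0.828 to 1.24 CPM in EGF/FGF and 0.678 to 1.05 CPM in BMP, with overlap, and its rise to 1.23 to 1.34 CPM in BMP/FGF over BMP (log2 fold change 0.61, SE 0.23, adjusted p = 0.0391) lost its call under 12 of 21 alternatives.

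**Figure D2:**
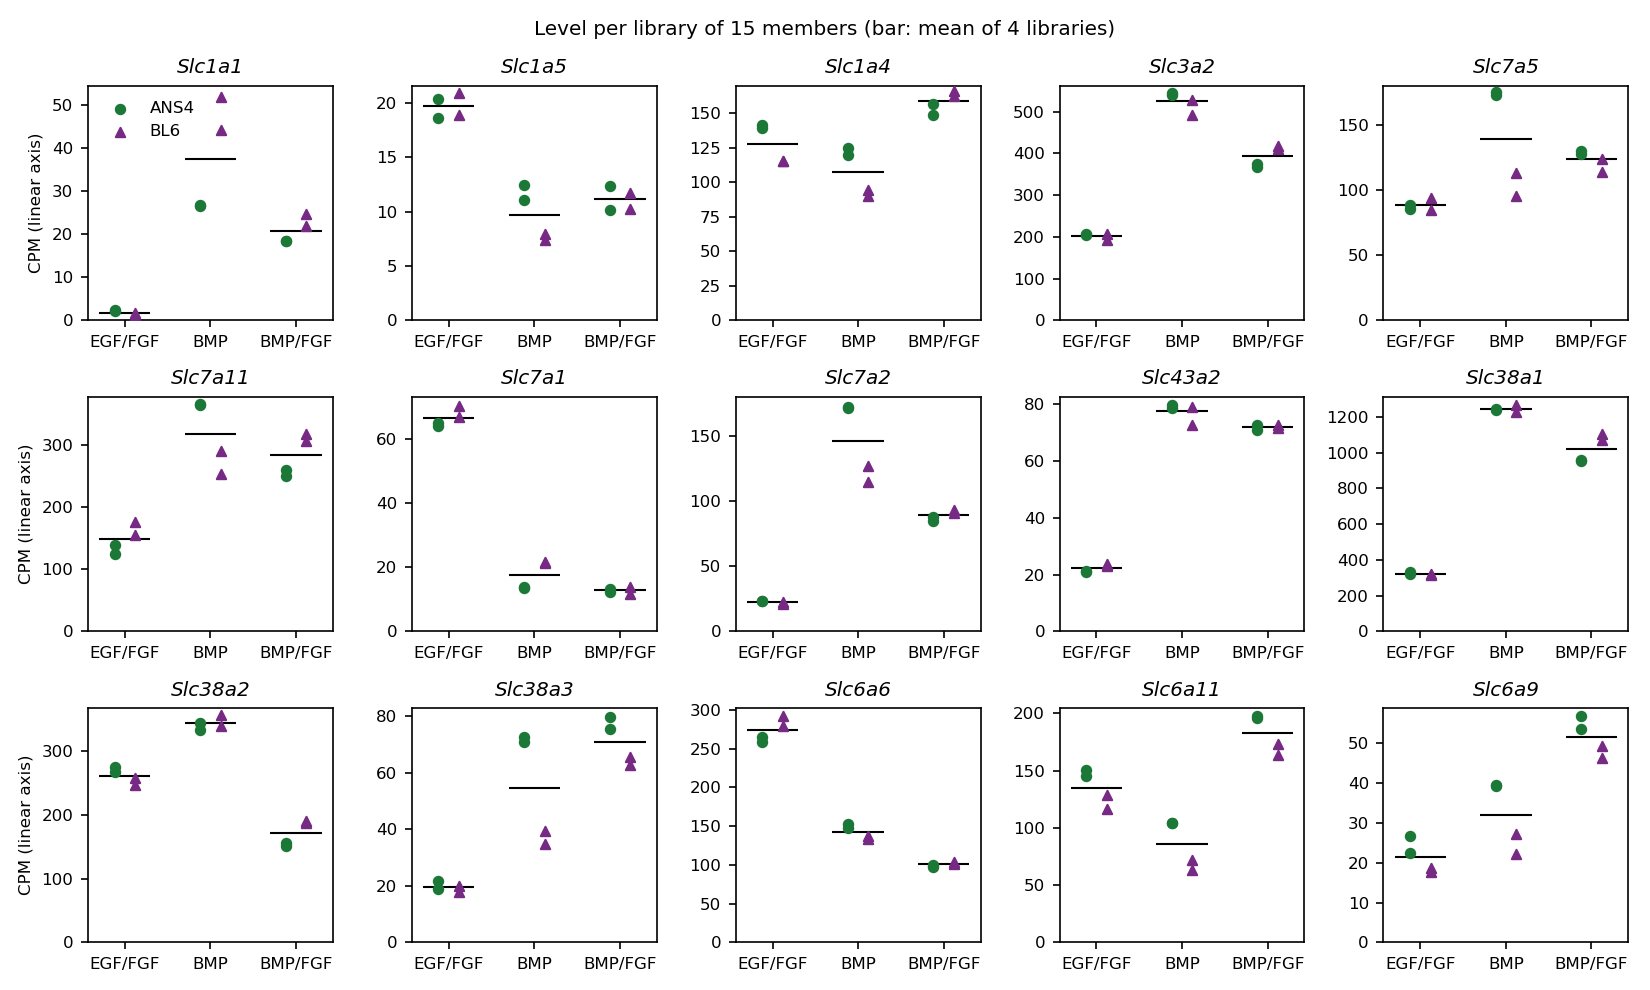
Level in CPM (y axis, linear, from 0) of 15 members in each of the 12 libraries by condition (x axis), circles for ANS4 and triangles for BL6, with the mean of 4 libraries as a bar. Slc7a1 falls while Slc7a2 rises from EGF/FGF to BMP, and Slc38a2 is lowest in BMP/FGF.

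Among the transmitter carriers of SLC6, Slc6a11 encodes GAT3, the GABA carrier of astrocytes. Its level was 151 and 145 CPM in ANS4 and 129 and 116 CPM in BL6 in EGF/FGF, 104 and 104 CPM in ANS4 and 62.9 and 72.3 CPM in BL6 in BMP and 196 and 198 CPM in ANS4 and 174 and 163 CPM in BL6 in BMP/FGF. BMP held the lowest and BMP/FGF the highest libraries, with ANS4 above BL6 in each condition. It fell under BMP (log2 fold change -0.67, SE 0.079, adjusted p = 3.75e-07) and rose 2.16-fold with FGF2 (log2 fold change 1.11, SE 0.079, adjusted p = 1.22e-08), the largest rise of a member in that comparison. Summed neuron markers, in CPM, were 1212 and 1127 in ANS4 and 1745 and 1572 in BL6 in BMP libraries, above the 556 to 589 CPM of EGF/FGF and the 869 to 934 CPM of BMP/FGF. Summed astrocyte markers lay at 1636 to 2016 CPM in EGF/FGF, 4825 to 6329 CPM in BMP, where this astrocyte carrier was lowest, and 8100 to 8290 CPM in BMP/FGF. The part of either marker list in the levels of Slc6a11 was not tested.

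Slc6a9 encodes GlyT1, the glycine carrier of glia. It had 22.4 and 26.6 CPM in ANS4 and 18.7 and 17.7 CPM in BL6 in EGF/FGF, 39.5 and 39.1 CPM in ANS4 and 22.2 and 27.3 CPM in BL6 in BMP and 56.8 and 53.6 CPM in ANS4 and 49.3 and 46.2 CPM in BL6 in BMP/FGF. It rose in BMP (log2 fold change 0.57, SE 0.097, adjusted p = 3.37e-05) and again with FGF2 (log2 fold change 0.71, SE 0.093, adjusted p = 1.20e-05), reaching 2.43-fold its level in EGF/FGF. Opposite-strand Ccdc24, with 1429 shared exon bases, was at 1.95 to 2.15 CPM throughout. B4galt2, also on the opposite strand and with 46 shared exon bases, had 42.4, 36.1 and 34.6 CPM in EGF/FGF, BMP and BMP/FGF. Slc6a6 encodes the taurine carrier and fell step by step, with 265 and 258 CPM in ANS4 and 293 and 279 CPM in BL6 in EGF/FGF, 153 and 147 CPM in ANS4 and 133 and 137 CPM in BL6 in BMP and 99.4 and 97.5 CPM in ANS4 and 102 and 104 CPM in BL6 in BMP/FGF. The conditions did not overlap. It fell from EGF/FGF to BMP (log2 fold change -0.94, SE 0.062, adjusted p = 1.33e-10) and from BMP to BMP/FGF (log2 fold change -0.51, SE 0.062, adjusted p = 5.74e-06).

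Slc6a17, a vesicular carrier of neutral amino acids, fell from 36 ± 7.11 to 26.6 ± 3.53 CPM in BMP (log2 fold change -0.43, SE 0.12, adjusted p = 0.00318), with log2 fold changes of -0.05 in ANS4 and -0.82 in BL6 and no call in ANS4 alone. Slc6a19, the neutral amino acid carrier B0AT1 of gut and kidney, was at 4 counts in each EGF/FGF library and at 2.27 to 3.65 CPM in BMP and 1.40 to 2.57 CPM in BMP/FGF (log2 fold change 3.79, SE 0.29, adjusted p = 1.29e-09 for BMP against EGF/FGF). Slc6a19 passed the filter on low counts only through libraries with BMP4, so a call as higher was favoured in advance and its p-value is no independent support. Its level remained among the lowest of the members per kilobase, at 0.702 CPM per kb in BMP. Slc7a6os, the neighbour without transporter function, was at 21.7 ± 2.09, 15.4 ± 1.49 and 18.1 ± 1.86 CPM, lower in BMP than in EGF/FGF (log2 fold change -0.50, SE 0.1, adjusted p = 0.000186).

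An exact permutation test (two-sided, 4 against 4 libraries, log2 of CPM + 0.1) gives 0.0286 as its smallest possible p. It gave that value in BMP against EGF/FGF for, among others, Slc1a1, Slc1a5, Slc3a2, Slc7a1, Slc7a2, Slc7a5, Slc7a11, Slc38a1, Slc38a2, Slc38a3, Slc43a2, Slc6a6 and Slc6a11. The same p was found in BMP/FGF against BMP for, among others, Slc1a1, Slc1a4, Slc3a2, Slc7a2, Slc38a1, Slc38a2, Slc36a4, Slc6a6, Slc6a9 and Slc6a11. Larger values were found for some called members, among them Slc7a1 in BMP/FGF against BMP (exact permutation p = 0.114), Slc38a3 in the same comparison (0.257), and Slc6a9 (0.0857) and Slc1a4 (0.171) in BMP against EGF/FGF. These p-values are unadjusted for the number of members. The permutation took no account of cell line, which the edgeR test fitted, so a level difference between ANS4 and BL6 counts as spread.

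The 2 lines were compared by a line by condition interaction, which asks whether a change was equal in ANS4 and BL6. Of the 35 tested members, 13 (37.1%) differed between the lines in their change from EGF/FGF to BMP, beside 9.02% of all tested genes, and 13 (37.1%) differed in the change from BMP to BMP/FGF, beside 13.5%. The count of the first ranged from 6 to 12 when 1 library was left out and that of the second from 5 to 13, so several single calls lay near the threshold. Some were lost even without a library outside the comparison. Under BMP, Slc6a6 kept its line difference of -0.28 without the first ANS4 library of BMP/FGF but was not called (adjusted p = 0.0717). The BMP libraries enter both interactions, with opposite sign, so a line difference within BMP appears in both.

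Slc7a5, Slc7a11, Slc38a3 and Slc7a2 rose less in BL6 than in ANS4 under BMP. For Slc7a5 the BL6 minus ANS4 difference was -0.77 ± 0.11 (SE), adjusted p = 0.000411, and for Slc7a11 it was -0.74 ± 0.11 (SE), adjusted p = 0.000469, from within-line log2 fold changes of 1.46 in ANS4 and 0.70 in BL6. The Slc38a3 rises were 1.81 in ANS4 and 0.97 in BL6, and those of Slc7a2 were 2.88 in ANS4 and 2.45 in BL6. The first 3 of these line differences were called under all 18 alternatives run. That of Slc7a2 (-0.42 ± 0.11 (SE), adjusted p = 0.0211) was not called with the 8 libraries compared alone (adjusted p = 0.0577), nor without the first (0.0596) or second (0.0817) ANS4 library of EGF/FGF, the first ANS4 library of BMP (0.06) or the first BL6 library of EGF/FGF (0.115). For all 4 genes the change with FGF2 differed in the other direction, at 0.62 ± 0.11 (SE), adjusted p = 0.00156 for Slc7a5 and 0.60 ± 0.095 (SE), adjusted p = 0.000706 for Slc7a2. In BMP/FGF the lines stood closer together, with Slc7a5 at 128 and 130.0 CPM in ANS4 and 123 and 114 CPM in BL6.

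Slc1a1 showed the reverse, with a rise under BMP of 3.54 in ANS4 and 5.13 in BL6 and a line difference of 1.60 ± 0.28 (SE), adjusted p = 0.00198. Slc7a1 fell less in BL6 (-2.24 in ANS4 and -1.69 in BL6), and Slc1a5 had the larger fall there (-0.73 in ANS4 and -1.39 in BL6). The Slc1a5 difference (-0.65 ± 0.17 (SE), adjusted p = 0.0262) was not called in the DESeq2 Wald test (adjusted p = 0.0534), nor without the first ANS4 library of EGF/FGF (0.0899), the second ANS4 library of BMP (0.0963) or the second BL6 library of EGF/FGF (0.107). With FGF2, Slc1a4 rose by 0.32 in ANS4 and 0.83 in BL6 on the log2 scale, a difference of 0.51 ± 0.087 (SE), adjusted p = 0.00106. Within BMP the lines also differed in markers. Summed over their lists, in CPM, neuron markers were 1212 and 1127 in ANS4 and 1745 and 1572 in BL6, astrocyte markers 6269 and 6329 in ANS4 and 4825 and 4898 in BL6 and cycling genes 266 and 242 in ANS4 and 418 and 361 in BL6. Their part in the line differences of the transporters was not tested, and strain and line cannot be told apart with 1 line of each strain.

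**Figure D3:**
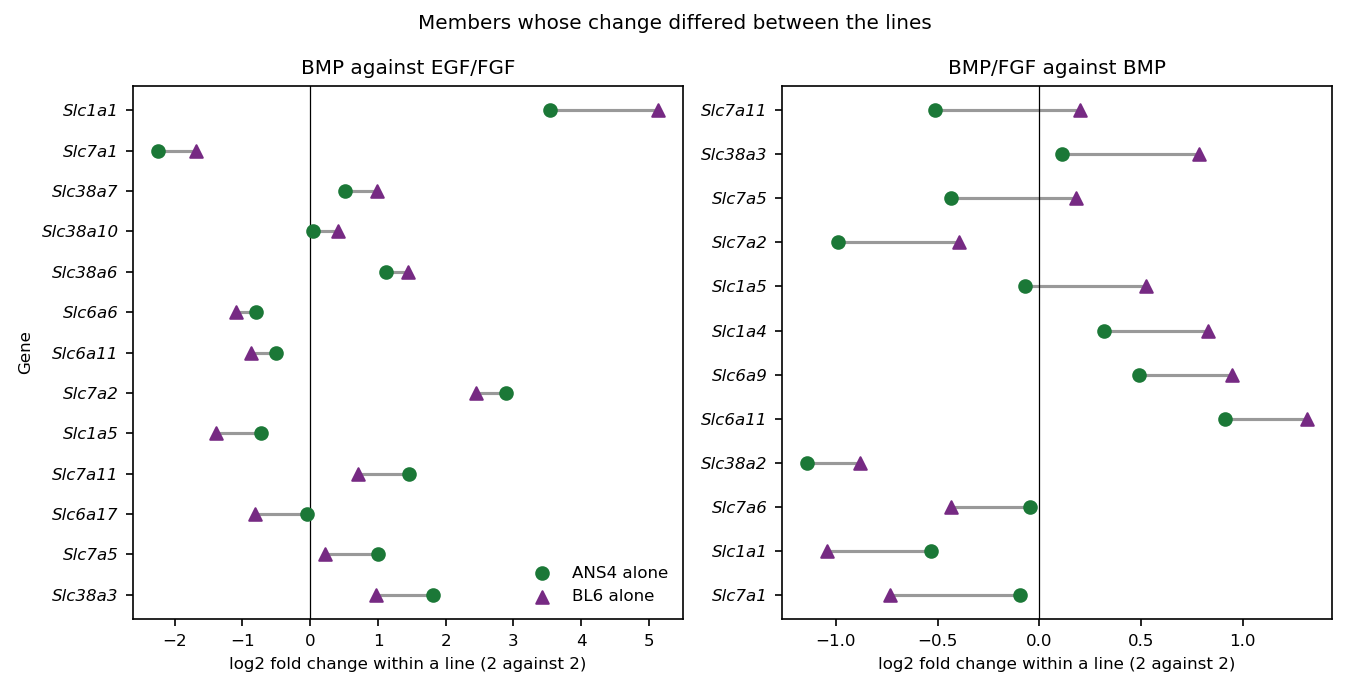
Log2 fold change within ANS4 (circles) and within BL6 (triangles), each from 2 against 2 libraries (x axis), for members of at least 1 CPM whose change differed between the lines (y axis), BMP against EGF/FGF on the left and BMP/FGF against BMP on the right. Slc7a5 rose by 1.00 in ANS4 and 0.21 in BL6 under BMP; Slc7a3, below 1 CPM, is left out.

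Genes that handle the same amino acids inside the cell were counted from lists of related pathways. The cytosolic aminoacyl-tRNA synthetases, which load amino acids onto tRNA for protein synthesis, were mostly lower in the quiescent conditions. In BMP 19 of 20 were lower than in EGF/FGF and 1, Dars, was higher, with a median log2 fold change of -0.84 beside 0.02 over all tested genes, of which 38.8% were lower. In BMP/FGF 18 of 20 (90%) were lower than in EGF/FGF, beside 38% of all tested genes. Between BMP/FGF and BMP 3 (15%) were higher, 2 (10%) lower and 15 not called, beside 20.1% higher and 21.3% lower among all tested genes. Vars, for valine, had 123 ± 2.26, 48.1 ± 4.08 and 38.9 ± 2.68 CPM in EGF/FGF, BMP and BMP/FGF (log2 fold change -1.35, SE 0.067 for BMP against EGF/FGF).

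The amino acid response list, made of Atf4 and genes that ATF4 is known to switch on, was divided. In BMP 8 of 25 were higher and 12 lower than in EGF/FGF, with a median of -0.13. These shares of 32% and 48% stood beside 40.8% and 38.8% of all tested genes, and the share called in either direction, 80%, was close to that of all tested genes. Atf4 itself had 148 ± 3.87 CPM in EGF/FGF and 61.1 ± 12.4 CPM in BMP (log2 fold change -1.28, SE 0.12), and Asns, the asparagine synthetase, had 45 ± 2.07 and 13.6 ± 0.963 CPM (log2 fold change -1.73, SE 0.077). Mthfd2, of the mitochondrial folate pathway, fell further (log2 fold change -2.86, SE 0.13). Among the 8 that rose were Chac1 (log2 fold change 1.70, SE 0.21), Aldh1l2 (log2 fold change 1.40, SE 0.065) and Ppp1r15a (log2 fold change 0.96, SE 0.10). In the same libraries Slc7a11 and Slc7a7 rose and Slc1a4 fell. With FGF2, 6 of the 25 (24%) were higher and 2 (8%) lower than in BMP, beside 20.1% and 21.3% of all tested genes. Among the higher ones were Atf4 (log2 fold change 0.38, SE 0.12) and Asns (log2 fold change 0.33, SE 0.081). The 2 lower ones were Mthfd2 (log2 fold change -0.57, SE 0.16) and Atf5 (log2 fold change -0.22, SE 0.071). Of the transporters, Slc1a4 was higher too while Slc7a11 was not called. Promoter windows of 22 list genes were given, and 7 of them (31.8%) held the core TGATGNAA, namely Trib3, Chac1, Asns, Vldlr, Nupr1, Atf3 and Pck2.

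Of 31 tested genes that report amino acids to mTORC1, 15 (48.4%) were higher and 8 (25.8%) lower in BMP than in EGF/FGF, beside 40.8% and 38.8% of all tested genes, so the share higher was near that background. The leucine sensor relatives Sesn1 (72.6 ± 6.78 to 237 ± 21.3 CPM, log2 fold change 1.71, SE 0.073) and Sesn3 (45.6 ± 3.52 to 127 ± 19.6 CPM, log2 fold change 1.47, SE 0.092) and Castor2 (log2 fold change 1.29, SE 0.058) rose most, and Sec13 (log2 fold change -0.91, SE 0.06) and Seh1l (log2 fold change -0.75, SE 0.081) fell most. Sesn2, the relative of Sesn1 and Sesn3 on this list, was lower in BMP (26.4 ± 4.51 to 20.3 ± 1.83 CPM, log2 fold change -0.37, SE 0.098). With FGF2, 2 genes of the list were higher and 7 lower than in BMP (6.45% and 22.6%, beside 20.1% and 21.3%). In the mitochondrial carriers 3 of 8 rose and 2 fell in BMP (37.5% and 25%), led by the glutamate carrier Slc25a18 (log2 fold change 1.44, SE 0.089).

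The enzymes of glutamate, glutamine, GABA and proline were split between 6 higher (42.9%) and 7 lower (50%) of 14 in BMP, beside 40.8% and 38.8% of all tested genes. Glutamine synthetase Glul rose from 426 ± 42.7 in EGF/FGF to 1333 ± 196 CPM in BMP (log2 fold change 1.64, SE 0.074). Glutamate dehydrogenase Glud1 (log2 fold change 1.75, SE 0.099) and GABA transaminase Abat (log2 fold change 2.72, SE 0.089) rose, and the transaminases Got1 (log2 fold change -1.52, SE 0.08) and Got2 (log2 fold change -0.54, SE 0.061) fell. A GABA-making enzyme, Gad1, had 2.68 ± 0.272, 26.6 ± 15.3 and 9.06 ± 0.426 CPM in EGF/FGF, BMP and BMP/FGF. The vesicular GABA carrier Slc32a1 was at 0 counts in every EGF/FGF library, at 1.87 ± 0.935 CPM in BMP and at 0.383 ± 0.0926 CPM in BMP/FGF. In both Gad1 and Slc32a1 BMP was highest, as it was for the summed neuron markers, while the astrocytic GABA carrier Slc6a11 was lowest in BMP. Not every gene of these lists was highest in BMP, so the 2 genes do not stand for GABA handling as a whole. Of 8 vesicular carriers listed, only 4 were tested. All 4 were higher in BMP than in EGF/FGF, beside 40.8% of all tested genes, with Slc17a7 (adjusted p = 0.0411) and Slc18b1 (adjusted p = 0.0363) close to the threshold. Slc32a1 passed the filter on low counts only through libraries with BMP4, so its direction was fixed in advance. Slc17a7 was also low, at 0.311, 0.572 and 0.632 CPM in EGF/FGF, BMP and BMP/FGF. The count of 4 is therefore no support for a rise of these carriers as a group.

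**Figure D4:**
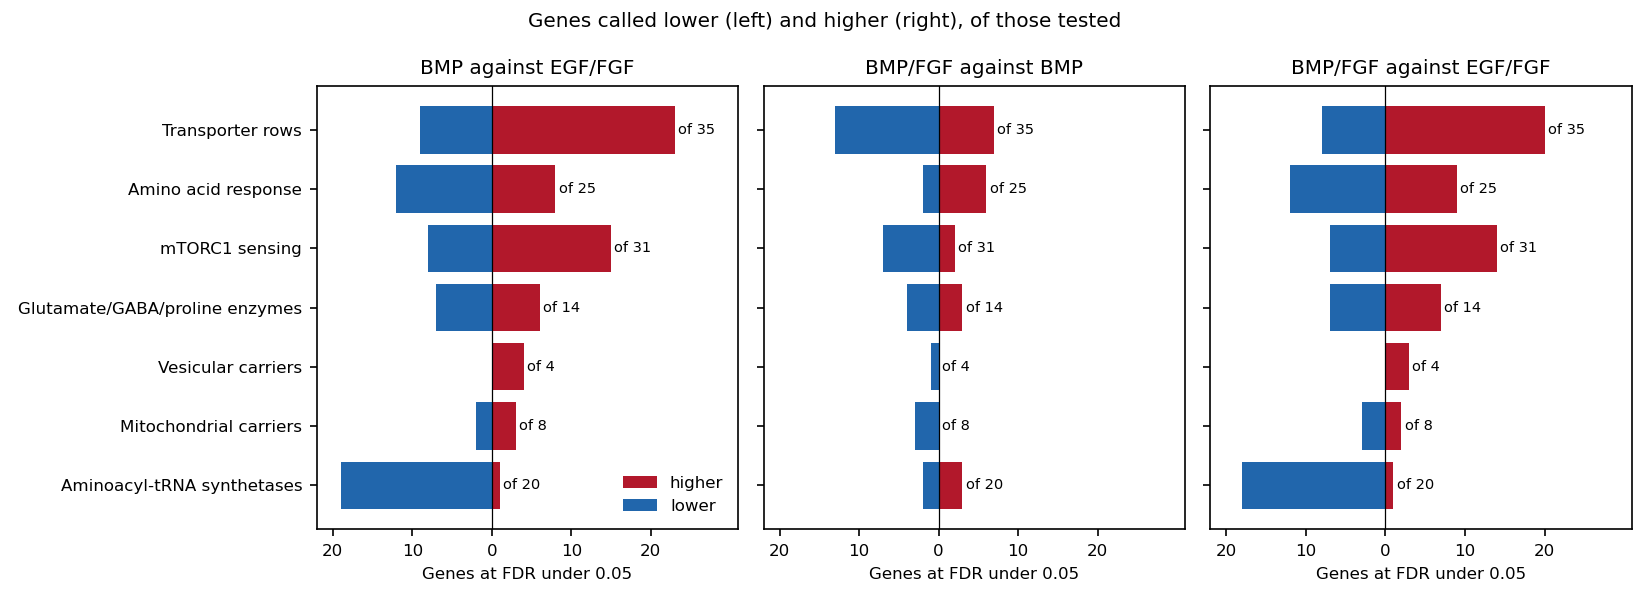
Number of genes (x axis) lower (blue, left) and higher (red, right) at an FDR under 0.05 in the transporter rows and 6 related lists (y axis), in the 3 comparisons, with the number tested beside each bar. In BMP against EGF/FGF 23 of 35 transporter rows were higher and 19 of 20 aminoacyl-tRNA synthetases lower.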

How the data were processed

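RNA from 12 mouse NSC libraries was sequenced with a low input protocol on BGISEQ-500RS. After trimming (Trim Galore 0.5.0), the authors estimated transcript abundance with kallisto 0.44.0 on mm10 transcripts and summed it per gene with tximport, and the estimated counts were deposited as whole numbers. A second deposited table of rlog values was not used. Strandedness is not given in the sources used here.

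Counts were analysed in R 4.3.3 with edgeR 4.0.16 and limma 3.58.1. Of 17365 genes, filterByExpr by condition kept 13312. TMM factors and glmQLFit with condition and cell line over all 12 libraries were used, and glmQLFTest (two-sided) was judged at 0.05 after Benjamini-Hochberg adjustment over every gene tested. Line differences were tested as an interaction. Exact permutation tests used Python 3.11.15 with scipy 1.17.1. Levels per kilobase used the longest GENCODE vM21 transcript. DESeq2 1.42.0 gave alternatives, with other scalings, no filter, each line alone, a replicate block and each library left out. The main edgeR model, its DESeq2 counterpart, the edgeR replicate block and the edgeR interaction were tried on simulated data with planted changes, and the other fits were not.

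Members, groups and related lists were chosen with earlier results of these data known. Named were members called with an absolute log2 fold change of at least 1 or differing between lines (both from a mean of 1 CPM), and a list of carriers; fold changes over both lines are given only where called. Correlations with Slc3a2 are not given, because the libraries fall into 3 clusters of 4. Genes of these families without a row were not analysed here. Values of 1 tested member and 1 enzyme are not reported here, and both stay in the counts. Sequences are from RefSeq.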

Additional observations from a re-analysis of the deposited data

Results flagged for a closer look

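Within conditions of 4 libraries, 2 of 105 sets (35 members in 3 conditions) had a library far from the others by Dixon's test, where chance alone gives about 1 in 20. Slc43a2 was at 72.6 CPM in the first BL6 library of BMP, beside 78.7 to 79.6 CPM in the other 3. Slc7a8 was at 3.30 CPM in the first BL6 library of BMP/FGF, beside 4.10 to 4.20 CPM in the others.

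The change from EGF/FGF to BMP differed between the lines (edgeR interaction, adjusted p under 0.05) for 13 members. As BL6 minus ANS4 on the log2 scale, the positive differences were Slc1a1 1.60, Slc7a1 0.57, Slc38a7 0.48, Slc38a10 0.38 and Slc38a6 0.34, and the negative ones were Slc38a3 -0.83, Slc7a5 -0.77, Slc6a17 -0.75, Slc7a11 -0.74, Slc1a5 -0.65, Slc7a2 -0.42, Slc6a11 -0.35 and Slc6a6 -0.28. Their adjusted p-values ran from 0.000411 for Slc7a5 to 0.0493 for Slc38a7.

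The change from BMP to BMP/FGF differed for 13 members as well. The positive differences were Slc7a11 0.71, Slc38a3 0.68, Slc7a5 0.62, Slc7a2 0.60, Slc1a5 0.59, Slc1a4 0.51, Slc6a9 0.46, Slc6a11 0.40 and Slc38a2 0.26, and the negative ones were Slc7a3 -3.43, Slc7a1 -0.64, Slc1a1 -0.51 and Slc7a6 -0.39. Adjusted p-values ran from 0.000495 for Slc7a11 to 0.0457 for Slc38a2. The value of Slc7a3 rests on fewer than 20 counts in every library, with 0 counts in the first ANS4 library of BMP. In both comparisons the same BMP libraries enter, so the 2 sets of differences are not independent. Without 1 library at a time, 6 to 12 and 5 to 13 members were called.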

How the results depend on the processing

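No call changed sign under any alternative run. Of 32 members called in BMP against EGF/FGF, 26 kept the call under all alternatives that gave a value and 6 lost it under at least 1. The corresponding numbers were 10 and 10 of 20 in BMP/FGF against BMP, 24 and 4 of 28 in BMP/FGF against EGF/FGF, and 6 and 7 of 13 and 5 and 8 of 13 for the line differences. With 1 library left out, 22 to 23 members were higher, 9 lower and 7 to 8 past 1.5 in BMP against EGF/FGF. In BMP/FGF against BMP 5 to 8 were higher, 10 to 14 lower and 0 past 1.5, and in BMP/FGF against EGF/FGF 20 were higher, 7 to 8 lower and 7 to 9 past 1.5. Line differences numbered 6 to 12 under BMP, the fewest without the first ANS4 library of EGF/FGF, and 5 to 13 with FGF2, the fewest without the first BL6 library of BMP/FGF. With only the 8 libraries compared, 7 members differed between the lines under BMP. Without the filter, 8 differed with FGF2, and 1 member, Slc6a4 at no more than 4 counts in a library, passed 1.5 in BMP/FGF against BMP. The causes were not tested, apart from the smaller number of libraries fitted.

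Deviations of same-numbered libraries correlated at -0.18 to 0.31 over 9967 genes, highest between EGF/FGF and BMP of ANS4. Each line and condition gives a single replicate difference, so this cannot decide whether same-numbered libraries were handled together. With the replicate block, 22 members were higher and 9 lower in BMP, 6 higher and 12 lower with FGF2 against BMP, 20 higher and 8 lower in BMP/FGF against EGF/FGF, and 10 differed between the lines in either interaction. Scaling by DESeq2 size factors or library size kept 104 and 103 of 105 mean levels within 1 SD, whereas median transcript length moved 95 of 105 levels per kilobase. Depth limits members under the filter, where 3 counts equalled 0.155 to 0.168 CPM.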

Other observations

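Mitochondrial carriers that exchange aspartate for glutamate differed between the quiescent conditions. Slc25a12 had 69.6 ± 3.51, 65.2 ± 8.27 and 40.7 ± 1.22 CPM (mean ± SD, n = 4) in EGF/FGF, BMP and BMP/FGF, and was lower in BMP/FGF than in BMP (log2 fold change -0.68, SE 0.078). Slc25a13 had 12.1 ± 0.641, 6.95 ± 0.502 and 4.93 ± 0.241 CPM and was lower as well (log2 fold change -0.50, SE 0.10). Proline dehydrogenase Prodh had 4.20 ± 0.403, 15.5 ± 3.08 and 10.2 ± 1.40 CPM, higher in BMP than in EGF/FGF (log2 fold change 1.87, SE 0.13) and lower with FGF2 than in BMP (log2 fold change -0.60, SE 0.12).

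The order of members by level per kilobase depended on the transcript length chosen. Slc6a6 stood at 44.3 CPM per kb in EGF/FGF with its longest transcript and at 490 with its median transcript, where it exceeded Slc38a6 (72.8 and 247) and Slc3a2 (72.1 and 249.9).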
